A study of Mus musculus with 3 samples.

Results

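Selenoproteins carry selenocysteine (Sec), an amino acid with selenium in place of the sulfur of cysteine. The 9 genes described here are Selenop, Gpx1, Gpx4, Selenow, Selenof, Msrb1, Selenot and Selenok, which encode 8 selenoproteins, and Secisbp2, which encodes a protein needed to make them. They were given as a list of gene symbols with no threshold on their values, by a choice made with earlier results of these data known, and all 9 were found among the 55536 annotated genes measured. RNA came from the cytosolic fraction of bone marrow-derived macrophages, cells cultured from the marrow of C57BL/6J mice until they become macrophages, after 50 min with 100 ng/ml lipid A, the part of bacterial lipopolysaccharide that activates Toll-like receptor 4. The 3 libraries belong to 1 group and are called libraries 1, 2 and 3 after their labelled replicate numbers. All carry the same donor label, the sex and age of the mice were not collected, and the labels do not say whether the replicates came from separate animals or cultures, so the p-values below speak only of the spread among these 3 samples, and that spread may be technical. All samples were stimulated, and no value here is a response to lipid A.

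Sec is read from a UGA codon, which elsewhere ends translation. A stem-loop in the 3′ part of the messenger RNA, the SECIS element, is bound by the protein of Secisbp2, which brings in the elongation factor Eefsec with the Sec transfer RNA. Macrophages, which make hydrogen peroxide and other oxidants, use selenoproteins such as glutathione peroxidases and methionine sulfoxide reductase B1 to reduce peroxides and oxidised residues. Selenoprotein P, the product of Selenop, differs from the others in being secreted with many Sec residues, and it is best known as the plasma carrier of selenium made by the liver.

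The Sec codons of the members are shown because they set these messenger RNAs apart from others and because their number and position enter the results below. Each line gives the Sec codon in capitals (TGA in the DNA alphabet) within its coding sequence, 5′ to 3′, in the transcript with the highest TPM among those that carry it, from the GENCODE M21 transcripts (mm10).
Selenop, first Sec codon: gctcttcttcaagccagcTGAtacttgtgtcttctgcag
Gpx1: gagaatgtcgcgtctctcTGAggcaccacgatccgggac
Gpx4: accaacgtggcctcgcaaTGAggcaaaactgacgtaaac
Selenow: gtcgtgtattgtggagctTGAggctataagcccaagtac
Selenof: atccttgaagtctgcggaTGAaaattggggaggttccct
Msrb1: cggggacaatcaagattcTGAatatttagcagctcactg
Selenot: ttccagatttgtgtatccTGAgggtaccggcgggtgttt
Selenok: cctccaatggctggtggaTGAggaaggtaa

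Selenop has 10 annotated Sec codons, and each of the other 7 selenoprotein genes has 1. The first Sec codon of Selenop encodes residue 59 of 380 and lies in exon 2 of 5 (mm10 chromosome 15, 3274848 to 3274850, plus strand). The other 9 all lie in the last exon, between residues 259 and 377. The coding sequence from the fourth Sec codon to the stop codon (chr15:3279519-3279710) is shown because it holds 7 of the 10, all in capitals, within 192 bases.
Selenop, end of the coding sequence: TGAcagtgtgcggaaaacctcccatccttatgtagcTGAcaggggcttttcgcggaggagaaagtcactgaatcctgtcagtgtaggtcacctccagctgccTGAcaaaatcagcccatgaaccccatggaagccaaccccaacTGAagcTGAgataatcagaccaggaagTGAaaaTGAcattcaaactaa

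In the 7 genes with 1 Sec codon, that codon lies before the last exon, from 5 nt (Selenok) to 470 nt (Selenot) upstream of the last exon junction. The first Sec codon of Selenop also lies before its last exon, 357 nt upstream of that junction. Textbook nonsense-mediated decay acts on a stop codon well upstream of the last junction, and a Sec codon in that place can be read as such a stop. At 5 nt, the Sec codon of Selenok is not well upstream. Selenok is the member whose Sec codon is nearest to the end of the protein, at residue 92 of 94. Selenow is the opposite case, with Sec at residue 13 of 88. The base after the Sec codon was G in 5 of these 7 genes and A in the other 2, Selenof and Msrb1. Among the 10 Sec codons of Selenop it was C in 5, A in 2, G in 2 and T in 1. Over the 34 Sec codons annotated in all 24 mouse selenoprotein genes it was G in 14, C in 11, A in 7 and T in 2.

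The labelled cell type was checked against markers. All 10 macrophage markers were detected, that is, each library had them at 1 TPM or more. They were led by the lysozyme gene Lyz2 (6416 ± 1364 TPM), Cd68 (929 ± 253 TPM) and Cd14 (522 ± 78.2 TPM), and their summed level ranged from 6705 to 10018 TPM. Of 25 markers of other cells, 24 were under 1 TPM in all 3 libraries, and 8 of these, with a count of 0, included Cd3e of T cells and Alb and Apoa1 of hepatocytes. The exception was Pf4, known from megakaryocytes and also from macrophages, at 223 ± 17.8 TPM, which made up nearly all of the summed level of that list (214 to 246 TPM). Gene counts summed to 33044910, 36769402 and 36522216, and a count of 0 allows up to 3 counts, or 0.0816 to 0.0908 CPM (counts scaled to library size), which covers counting error only. Protein-coding genes took 38.3%, 26.6% and 34.8% of TPM in libraries 1, 2 and 3. TPM values are length-scaled shares of all RNA in a library, so a member's TPM moves with that percentage, and log2 CPM scaled by TMM are given for comparisons between libraries.

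Selenop was the leading member by a wide margin. It stood at 4404 TPM in library 1, 2534 TPM in library 2 and 3462 TPM in library 3 (mean 3467 ± 935 TPM, SD, n = 3). It took 1.05%, 0.807% and 0.878% of all gene counts, from 345985, 296621 and 320574 expected counts. Library 1 was highest and library 2 lowest, and Selenop ranked 8, 6 and 6 among protein-coding genes by TPM in libraries 1, 2 and 3. In the second quantification deposited by the authors, a separate transcript table summed here per gene, Selenop had 1872, 901 and 756 TPM and rank 7 in each library. That table gives lower TPM throughout, with protein-coding genes at 17.6%, 9.84% and 7.91% of its TPM, so ranks and ratios carry over between the tables better than levels. In bulk RNA, fewer cells with a transcript and less of it per cell cannot be told apart.

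The genes nearest to Selenop by rank of mean TPM were Lyz2 (rank 3), the lysosomal proteins Psap (rank 4, 5297 ± 1091 TPM), Ctsd (rank 5, 4369 ± 613 TPM) and Ctsb (rank 8, 3326 ± 1051 TPM), and the mitochondrially encoded mt-Atp8 (rank 7, 3340 ± 3430 TPM). The SD of mt-Atp8 was larger than its mean, while that of Selenop was 935 TPM around 3467 TPM. By the shape of its 3 log2 CPM values, Selenop was most like Rab7 (root mean square difference 0.0064), Gapdh (0.0071), Gabarap (0.0094), Klf6 (0.013) and Ahnak (0.016). This likeness rests on 3 libraries, and 67 of 420 protein-coding genes at 100 TPM or more (16.0%) lay within 0.1 of Selenop.

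**Figure D1:**
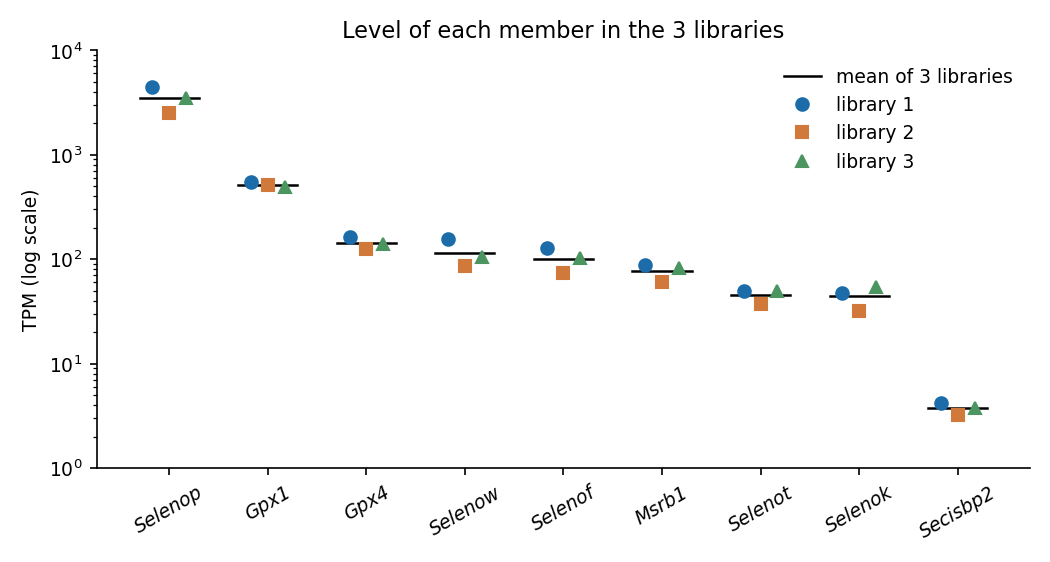
TPM (log axis) of the 9 members in the deposited gene tables, with 1 point per library and the mean of the 3 libraries as a bar. Selenop (mean 3467 TPM) stands above Gpx1 (516 TPM) in all 3 libraries, and Secisbp2 (3.72 TPM) is lowest.

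The peroxidases Gpx1 and Gpx4 came next. Gpx1, the cytosolic glutathione peroxidase that reduces hydrogen peroxide, had 547, 513 and 489 TPM in libraries 1, 2 and 3 (516 ± 29.2 TPM, n = 3). Gpx4, which reduces lipid hydroperoxides in membranes and protects cells from ferroptosis, had 161, 126 and 139 TPM (142 ± 17.8 TPM, n = 3). Selenop was above Gpx1 in all 3 libraries, by 8.06, 4.94 and 7.09 times, which is a mean log2 ratio of 2.71 ± 0.37. Gpx1 was in turn above Gpx4 in all 3, by a log2 ratio of 1.87 ± 0.14. The order held in the second quantification, at log2 ratios of 2.75 ± 0.29 and 1.69 ± 0.12. Counts for Gpx4 are uncertain to a degree, since the transcribed pseudogene copy Gpx4-ps2 was itself given 18.9 ± 3.12 TPM (456 to 632 expected counts per library) and near-identical copies can share reads.

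Selenow, Selenof and Msrb1 formed the middle of the order. Selenow encodes a small protein with a thioredoxin-like fold, and it had 156, 86.4 and 104 TPM (116 ± 36.3 TPM, n = 3). Selenof, an endoplasmic reticulum protein that binds the glycoprotein folding sensor UGGT, had 128, 74.5 and 102 TPM (101 ± 26.8 TPM, n = 3). Msrb1, the Sec-containing methionine-R-sulfoxide reductase of cytosol and nucleus, had 87.7, 60.0 and 82.4 TPM (76.7 ± 14.7 TPM, n = 3). All 3 genes were lowest in library 2 and highest in library 1 by TPM, as was the protein-coding share of TPM (38.3%, 26.6% and 34.8%). By log2 CPM, Msrb1 was instead highest in library 3, and Selenow was lowest there. The TPM ranges of the 3 genes over libraries overlap, but within each library the order of the genes was the same. The mean log2 ratio was 0.34 ± 0.26 for Gpx4 over Selenow, 0.18 ± 0.13 for Selenow over Selenof and 0.39 ± 0.14 for Selenof over Msrb1, each positive in 3 of 3 libraries. With 3 pairs, the smallest p of a two-sided exact sign-flip permutation test is 0.25, so the order is given as a description, with no test.

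Selenot and Selenok, which encode membrane proteins of the endoplasmic reticulum, were lower. Selenot had 49.7, 37.5 and 49.9 TPM (45.7 ± 7.14 TPM, n = 3), and Selenok, a cofactor of the palmitoyltransferase ZDHHC6, had 47.5, 31.7 and 54.1 TPM (44.4 ± 11.5 TPM, n = 3). These neighbours did not differ beyond their spread. Selenot was above Selenok in 2 of 3 libraries, by a mean log2 ratio of 0.06 ± 0.18. In the second quantification the order was the other way in 3 of 3 libraries, at -0.54 ± 0.10. Msrb1 was above Selenot in 3 of 3 libraries (0.74 ± 0.07).

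Secisbp2, the SECIS-binding factor and the only member without a Sec codon, had 4.16, 3.25 and 3.75 TPM (3.72 ± 0.456 TPM, n = 3), from 533 to 599 expected counts. It lay below every other member in each library, by a mean log2 ratio of 3.55 ± 0.29 to Selenok. By mean TPM it ranked 7154 among protein-coding genes, where Selenop ranked 6.

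The levels of the 8 selenoproteins were set against the whole family. Summed TPM of the 24 selenoprotein genes made up 1.42% ± 0.0871 of protein-coding TPM. Selenop held 75.4%, 69.3% and 72.6% of that sum in libraries 1, 2 and 3 (72.5% ± 3.05), and the 8 members together held 94.8% ± 0.773. Weighting each gene by its Sec codons gives a measure of how many Sec codons the messenger RNA pool holds, which says nothing of how many are translated. By this measure Selenop held 96.8%, 95.7% and 96.3% of all Sec-coding TPM (96.3% ± 0.542), and the other 7 selenoprotein members 2.98% ± 0.477. Gpx1 came to 1.50% ± 0.388 and Gpx4 to 0.406% ± 0.0633. Counting only transcripts with the codons in their annotated coding sequence left Selenop at 97.0% ± 0.620 and Gpx1 at 0.889% ± 0.421. This count leaves out Gpx1-204, described below, whose exons hold the codon ahead of its annotated start.

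**Figure D2:**
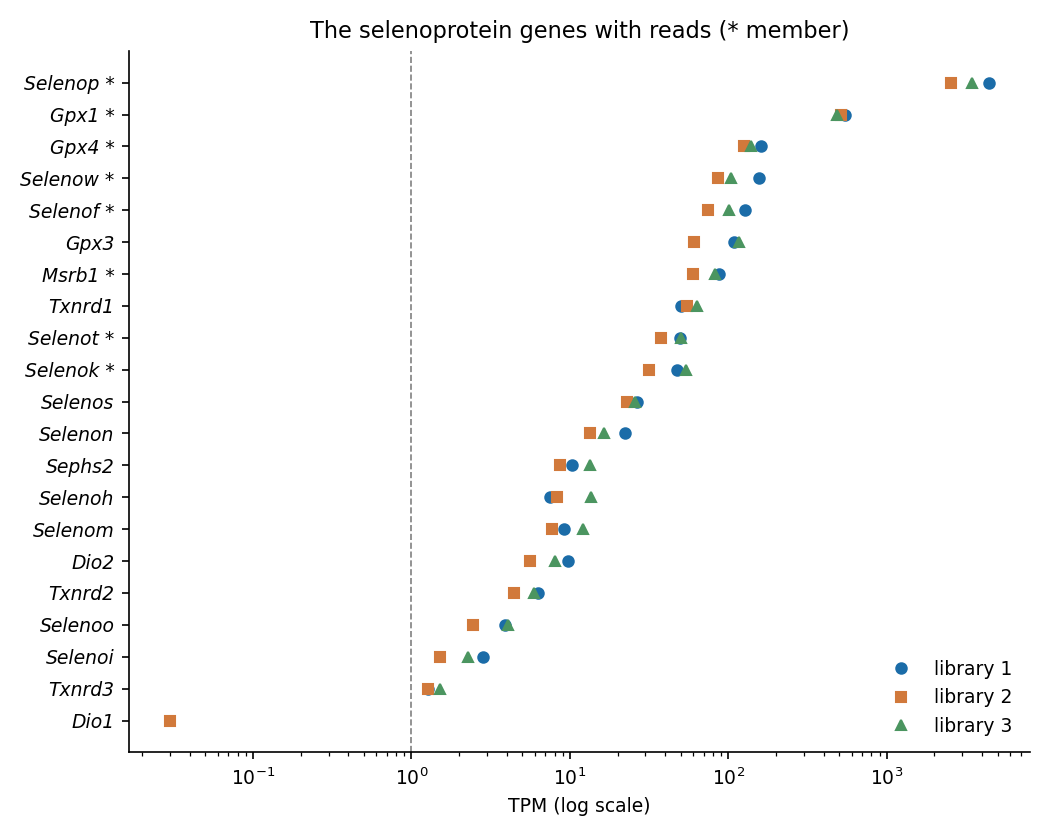
TPM (log axis) of the selenoprotein genes with reads, sorted by mean, with 1 point per library. Members are starred and the dashed line marks 1 TPM; Gpx3 (mean 95.4 TPM) and Txnrd1 (56.1 TPM) lie among the members, and Dio1 has 1 point because it had 2 counts, all in library 2.

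Of the 16 selenoproteins outside the members, 12 reached 1 TPM in each library, and the 2 highest lay within the members' range. Gpx3, the secreted glutathione peroxidase of plasma, had 108, 61.1 and 117 TPM, between Selenof and Msrb1 by mean. Txnrd1, the cytosolic thioredoxin reductase, had 50.0, 54.8 and 63.6 TPM, between Msrb1 and Selenot. Selenos, a partner of the derlins in endoplasmic reticulum-associated degradation, had 26.6, 23.1 and 25.9 TPM. Selenon stood at 17.4 ± 4.60 TPM, Sephs2, the selenophosphate synthetase that is itself a selenoprotein, at 10.8 ± 2.40 TPM, Selenoh at 9.84 ± 3.34 TPM and Selenom at 9.66 ± 2.25 TPM. Dio2, the deiodinase that activates thyroid hormone and the only other gene with more than 1 Sec codon (2), stood at 7.84 ± 2.10 TPM. Txnrd2, Selenoo, Selenoi and Txnrd3 had means from 1.36 to 5.56 TPM. In the first quantification Gpx2, Selenov and Dio3 had a count of 0 in all libraries and Dio1 had 2 counts, below the limit given above. The second quantification gave Selenov 0.215, 0.211 and 0.105 TPM, so whether it had any reads depended on the table. It was under 1 TPM in both.

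Variation between libraries was then asked of each member on the log2 CPM scale. None of the 9 members varied beyond the trend for genes of like abundance by edgeR's goodness-of-fit test with Benjamini-Hochberg adjustment, where 203 of the 12231 genes tested did (1.66%). At an unadjusted p under 0.05 the counts were 0 of 9 members and 785 of 12231 genes. Against that background, 0 of 9 is not a result about the members. The range from lowest to highest library had a median of 0.24 over the members and 0.28 over all genes tested.

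Gpx1 had the widest range of the members. Its log2 CPM was 8.64, 9.30 and 8.97 in libraries 1, 2 and 3, from 13269, 22514 and 18633 expected counts (chi-square goodness of fit in edgeR, p = 0.0688, adjusted p = 0.905). Library 1 was lowest for Gpx1 by this measure but highest by TPM, and the share of Gpx1 in its shorter transcript, described below, was also highest there. Gpx4 had the same order of libraries, at 6.97, 7.32 and 7.13. Selenop (13.34, 13.02 and 13.08), Selenow (6.67, 6.29 and 6.22) and Selenof (7.54, 7.30 and 7.37) were instead highest in library 1. For Selenop the range was 0.33, wider than in 57.4% of the genes tested, and for Gpx1 it was 0.66, wider than in 84.0%.

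Selenok, Selenot, Msrb1 and Secisbp2 were nearly level across libraries. The range was 0.04 for Selenok (6.28, 6.26 and 6.30), 0.08 for Selenot (7.54, 7.60 and 7.62), 0.09 for Msrb1 (6.30, 6.22 and 6.31) and 0.10 for Secisbp2, whose highest value, 4.06, was in library 2. Only 2.23% of the genes tested had a smaller range than Selenok. These values are on the log2 CPM scale within a gene and do not rank genes by level. No library was high throughout, with each of the 3 being the highest for 3 members. Over all genes tested, library 1 was highest for 36.8%, library 2 for 31.2% and library 3 for 32.0%. The split of the members is near these shares and is not a result about them. The share of counts on mitochondrial genes was 0.993%, 0.634% and 0.296% in libraries 1, 2 and 3, and its part in the differences between libraries was not tested. Outside the members, Selenoh had the widest range of the tested selenoproteins, with log2 CPM of 2.22, 2.86 and 3.24 (chi-square goodness of fit in edgeR, p = 0.0213, adjusted p = 0.494).

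**Figure D3:**
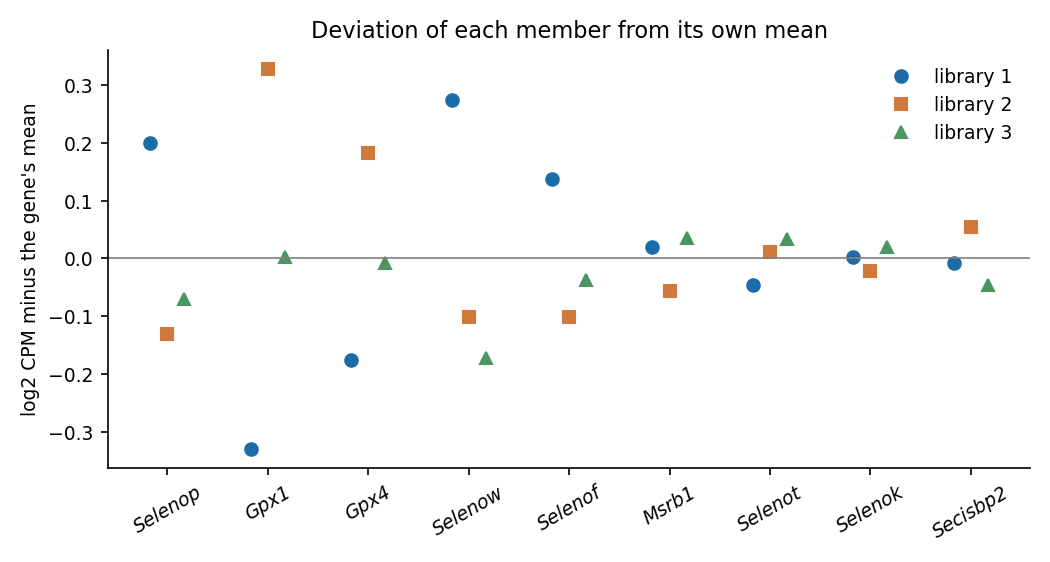
Log2 CPM of each member minus its own mean over the 3 libraries, with 1 point per library. Selenop, Selenow and Selenof are highest in library 1, Gpx1 and Gpx4 are lowest there, and the 3 points of Selenok span 0.04.

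The transcript tables were used to ask which messenger RNA forms the members had, and how many carry the Sec codon in their annotated coding sequence. Selenop came mainly from Selenop-203 (2085 nt), at 3967, 2307 and 2892 TPM, or 88.2% ± 4.08 of the gene. Selenop-201 (2013 nt) had 419, 214 and 556 TPM. Both have 5 exons and all 10 Sec codons, and Selenop-203 starts 154 bases downstream of Selenop-201. Transcripts with a Sec codon made up 99.98% ± 0.0162 of Selenop TPM. The 3′ end of Selenop overlaps the opposite-strand gene Ccdc152 by 439 bases, and Ccdc152 had 0.440 ± 0.272 TPM, so few reads were given to it.

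Gpx1 was divided between a form with the Sec codon in its annotated coding sequence and one without it there. Gpx1-201 (1072 nt), the longer, Sec-coding form, had 187, 320 and 366 TPM in libraries 1, 2 and 3. Gpx1-204 (653 nt) had 356, 189 and 118 TPM. The exons of Gpx1-204 include the bases of the Sec codon shown above (chromosome 9, 108339451 to 108339453), but its annotated start codon lies 27 bases after that codon, so its annotated protein of 145 residues has no Sec. Gpx1-201 was 34.3%, 62.4% and 74.9% of Gpx1 TPM in the first quantification and 34.9%, 72.2% and 81.6% in the second. Library 1 was thus lowest for the Sec-coding form and highest for the shorter form in both tables, while libraries 2 and 3 had more of the Sec-coding form. Shares of expected counts in the first quantification were also lowest for Gpx1-201 in library 1. There Gpx1-201 held 50.8% of the gene's counts and Gpx1-204 held 48.7%, so the shorter form led in library 1 by TPM but not by counts. The mean count share of Gpx1-201 was 70.7% ± 17.8.

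Gpx4 showed the same order of libraries. Gpx4-202 (959 nt) had 88.6, 115 and 137 TPM, and Gpx4-207 (735 nt), which starts 977 bases downstream in the gene, had 62.8, 10.6 and 1.62 TPM. Both carry the Sec codon. Gpx4-207 was highest in library 1 in the second quantification as well, at 41.8%, 1.16% and 0.566% of the gene. Its mean share in the first was 16.1%, and 4.77% without library 1. For Selenof, the full form Selenof-201 had 77.6, 53.9 and 75.4 TPM, and Selenof-202, which lacks a 50-base exon and starts 267 bases downstream, had 43.6, 20.4 and 22.6 TPM. Its share of the gene was 34.0%, 27.3% and 22.2% in the first quantification but 29.3%, 2.04% and 4.50% in the second, so library 1 was highest in both while the level in libraries 2 and 3 depended on the table. The difference between transcript length and effective length, which reflects the fragment length used by the authors' quantification, was 228, 223 and 198 nt in libraries 1, 2 and 3, and its part in these transcript shares was not tested.

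Selenok was the only member with a transcript annotated for nonsense-mediated decay. Selenok-203 has an extra exon of 63 bases (chromosome 14, 29970800 to 29970862) with a stop codon at 29970810 to 29970812, so its annotated reading frame ends after 40 codons, before the Sec codon. It made up 19.6%, 10.4% and 35.7% of Selenok TPM in the first quantification and 49.6%, 49.1% and 53.9% in the second. Over 2842 genes with such a transcript the median was 1.86% and the mean 8.66% in the first quantification, so some genes had far larger shares than the median. The same was not computed for the second. Selenok-201, the Sec-coding form, was 75.9% ± 16.5 of the gene in the first table and 31.7% ± 5.22 in the second. A noncoding transcript, Selenok-202, held 17.5% ± 2.58 in the second. The gene's count hardly moved between libraries, while the division of its TPM among its transcripts depended on the table used. By expected counts in the first table, Selenok-203 held 8.75%, 4.37% and 19.7% of the gene, and Selenok-201 held 88.4% ± 8.97. None of the 6 named pseudogene copies of Selenok had more than 1.23 expected counts in any library.

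The other members had simpler transcript sets. Selenow has 1 annotated transcript, and Selenot-201 held 99.96% ± 0.0770 of Selenot. Msrb1 was 88.2% ± 0.918 Msrb1-202 and otherwise Msrb1-201, both with the Sec codon, in nearly equal proportions in the 3 libraries. Secisbp2 was 95.5% ± 3.82 Secisbp2-201. By mean in the first quantification, retained-intron transcripts made up 3.20% ± 3.23 of Secisbp2 and under 0.2% of Selenop, Gpx1, Selenof and Selenot. Selenof reached 0.281% in library 1. Over 5781 genes with such a transcript the median was 1.48% and the mean 6.05%. For Gpx4 the share was 5.91% in library 1 and 0% in libraries 2 and 3, and its mean was 0.0790% in the second quantification.

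**Figure D4:**
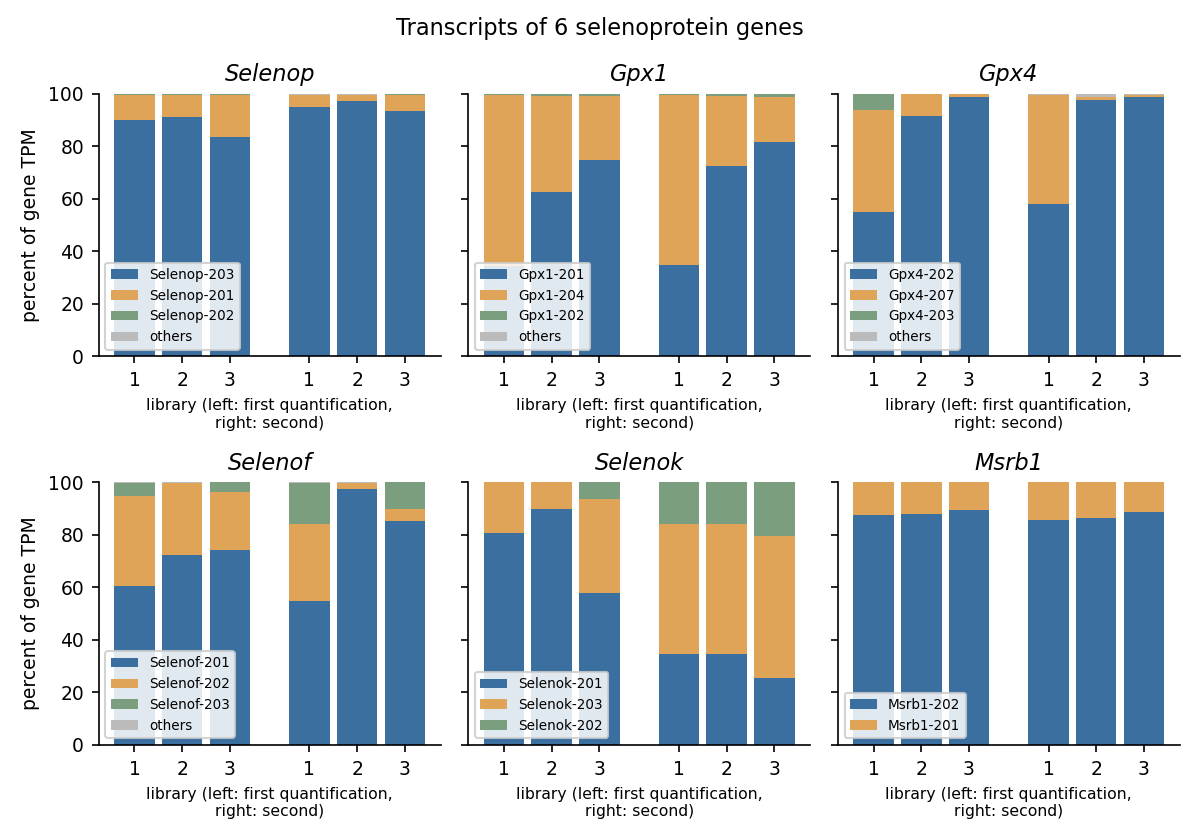
Percent of gene TPM in the 3 leading transcripts of 6 members and in all others, for libraries 1 to 3 in the first quantification (left bars) and the second (right bars). The Sec-coding Gpx1-201 is lowest in library 1 in both, and Selenok-203, annotated for nonsense-mediated decay, is larger in the second (50.9% against 21.9% by mean).

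The machinery that makes and inserts Sec was present at low levels. All 12 genes of this list, which includes Secisbp2 and Sephs2, reached 1 TPM in each library. Their median was 3.80 TPM, beside 5.89 TPM over all genes tested. None was called variable, where 1.66% of all genes tested were. The highest were Sars, the seryl-transfer RNA synthetase that also charges the Sec transfer RNA (26.2 ± 6.32 TPM), Secisbp2l, the paralog of Secisbp2, and Scly, the lyase that recovers selenium from Sec (18.0 ± 3.47 TPM). Secisbp2l was above Secisbp2 in each library, at 23.0, 17.6 and 22.5 TPM. Eefsec, the Sec elongation factor, stood at 2.70 ± 0.400 TPM and Sepsecs, which makes Sec on its transfer RNA, at 2.00 ± 0.526 TPM.

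Receptors that take up selenoprotein P were sparse apart from Lrp1. Lrp8, the receptor known from brain and testis, had 0.780, 0.580 and 0.880 TPM. Lrp2, the kidney receptor, had 3 counts in the first quantification, all in library 3. The second quantification gave Lrp2 0.0512, 0.0186 and 0.0193 TPM in libraries 1, 2 and 3. Lrp1, a related receptor of broad ligand range, had 235, 193 and 147 TPM. Enzymes akin to the members in sequence or in function that use cysteine were low. Only Msra (8.92 ± 1.31 TPM) and Msrb2 (2.72 ± 0.599 TPM) of 7 reached 1 TPM in each library, and Gpx5, Gpx6 and Gpx8 had a count of 0. Msrb1 was thus the highest of the methionine sulfoxide reductases measured, at 76.7 TPM by mean.

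Genes of the glutathione and thioredoxin systems, which reduce the same kinds of substrate, were all detected (14 of 14, median 21.6 TPM) and none was called variable. The peroxiredoxins Prdx1 (295 ± 73.9 TPM) and Prdx5 (94.1 ± 12.1 TPM) and thioredoxin Txn1 (62.3 ± 9.77 TPM) led, so Gpx1 lay above each of them by mean. Of 9 partners of the selenoproteins in the endoplasmic reticulum, 7 were detected, led by the segregase Vcp (69.7 ± 6.15 TPM), Sel1l (33.3 ± 5.99 TPM) and the derlin Derl1 (26.9 ± 3.23 TPM). Uggt1, the binding partner of Selenof, stood at 15.9 ± 3.84 TPM and Zdhhc6, the partner of Selenok, at 12.6 ± 2.78 TPM. Both were below the selenoprotein they bind in every library. Derl1 was instead above Selenos, a partner of the derlins, in every library, while Derl2 and Derl3 were below it. Of all the lists only the macrophage markers held a called gene, C1qa, at 51.3, 64.6 and 88.6 TPM (edgeR, Benjamini-Hochberg adjusted p = 0.0155). Over all genes tested 1.66% were called, so these counts are not a result about lists this short.

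The genes are annotated (GENCODE M21, mm10) as follows. Selenop (ENSMUSG00000064373.12) lies on chromosome 15 from 3268547 to 3280508, plus strand. Gpx1 (ENSMUSG00000063856.7) lies on chromosome 9 from 108338903 to 108340343 and Gpx4 (ENSMUSG00000075706.10) on chromosome 10 from 80047166 to 80056439, both on the plus strand. Selenow (ENSMUSG00000041571.9), the only member on the minus strand, lies on chromosome 7 from 15917208 to 15922402. Selenof (ENSMUSG00000037072.15) and Selenot (ENSMUSG00000075700.9) share chromosome 3, from 144570304 to 144597680 and from 58576636 to 58593133. Msrb1 (ENSMUSG00000075705.12) lies on chromosome 17 from 24736642 to 24742778, Selenok (ENSMUSG00000042682.9) on chromosome 14 from 29968308 to 29975662, and Secisbp2 (ENSMUSG00000035139.14) on chromosome 13 from 51651697 to 51684044.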

How the data were processed

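Total RNA depleted of ribosomal RNA was measured in 3 libraries. The authors deposited, per library, a gene and a transcript table of 1 layout (first quantification) and a transcript table of another layout (second). The expected counts (estimated read numbers) and TPM in them were computed by the authors on mm10 and GENCODE M21, per the labels and the deposited notes. The tools and strand setting were not given in the sources used here. Of 81881 rows, 55536 matched the annotation; the 26345 others (0.365%, 0.162% and 0.0200% of counts) were left out.

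The genes and lists were chosen with earlier results of these data known. Named are all members and other selenoproteins, the 3 highest genes and any called gene of each list, and the 5 genes most like Selenop in log2 CPM pattern and the 5 nearest in rank. Levels are means ± SD of TPM. Variation was tested with edgeR 4.0.16 (R 4.3.3; counts rounded, filterByExpr, TMM, intercept only, trended dispersion, chi-square goodness of fit, Benjamini-Hochberg, threshold 0.05, prior count 0.5). In counts simulated with the trended dispersion it called 53 of 100 genes moved 2-fold, 97 of 100 moved 4-fold and 1 of 12031 unmoved. Each moved gene was drawn above a floor on mean count and moved in 1 library. These rates therefore do not cover genes with low counts or with a spread off the trend. Sec codons are the selenocysteine features of GENCODE M21; the planned source, a RefSeq protein table, was not used here, so this count is a departure from the plan. Alternatives were other scalings, dispersion and filter, the second quantification and leaving out each library; 2 were added after seeing the data (Sec codons per transcript, and transcript shares of expected counts). Python 3.11.15 with pandas 2.3.3, numpy 2.4.6 and matplotlib 3.10.9 did the rest.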

Additional observations from a re-analysis of the deposited data

How the results depend on the processing

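The absolute TPM of Selenop depended on the table and scale: 1176 TPM in the second quantification and 10326 when TPM were rescaled over protein-coding genes, while its rank stayed between 6 and 7 in the alternatives run. The number of variable genes was 89 to 132 when 1 library was left out (132 without library 1, 91 without library 2, 89 without library 3); fewer samples enter those fits. No member was called in any of the 8 alternatives; the lowest adjusted p of Gpx1 was 0.724 (edgeR, without library 3, unadjusted p = 0.0217). The common dispersion called 298 genes. Selenop held 97.0% of Sec-coding TPM when counted per transcript. In the second quantification Selenop-203 was 95.1% of its gene and Selenok-201 31.7%; the cause was not tested. The log2 ratio of Selenot over Selenok, 0.06, was -0.54 in the second quantification and -0.02 without library 2. Beyond the 8 values of the main results given here, the other 46 moved by less than 1 SD or, for counts, by less than 1.5 times. Outside the main results, 28 values moved by more, and 166 did not or kept their call. The 28 include the TPM levels of the other members, which depended on table and scale as for Selenop. In the second quantification the log2 ratio was 4.07 for Selenok over Secisbp2 and 1.69 for Gpx1 over Gpx4, against 3.55 and 1.87 in the first. No paired analysis was possible because there is only 1 group. Depth limits Dio1, Dio3, Gpx2, Selenov and Lrp2, each at 3 counts or fewer in every library of the first quantification.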
